A study of Homo sapiens with 12 samples.

Results

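Expression of 9 genes that encode proteins of the red cell membrane (SLC4A1, AQP1, RHAG, EPB42, ANK1, SPTB, EPB41, KEL and ERMAP) was followed across 12 Affymetrix arrays of a human leukaemia line and its drug-resistant subline. They were chosen by name, as a list of membrane proteins, out of 18417 genes tested, with earlier results of these data known. Their counts are set beside the shares of all genes as a description and not as a test. Each of the 9 is read by 1 row of the deposited table that carries no other gene's symbol. K562, called KS here, is an established human cell line of chronic myeloid leukaemia. K562/ADR, called KA, is its adriamycin-resistant subline and was kept in 50 nM adriamycin (doxorubicin). Each line was left untreated or given 5 nM decitabine for 72 hours, with 3 arrays in each of the 4 groups. Decitabine is a cytidine analogue that enters DNA and depletes DNA methyltransferases. The stated aim of the series was to learn how decitabine acts on drug resistance that rests on the pump P-glycoprotein. What was given to untreated cells, whether KA is a clone, whether adriamycin stayed on during treatment and whether the 3 samples of a group were separate cultures is not stated in the labels. The p-values therefore measure only the spread between these samples, which may be technical, and effects of the line and of the adriamycin it was kept in cannot be told apart.

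The red cell membrane is a lipid bilayer held by a spectrin meshwork on its inner face. Band 3, the chloride-bicarbonate exchanger encoded by SLC4A1, is its most abundant integral protein and is tied to spectrin through ankyrin (ANK1) and protein 4.2 (EPB42), while protein 4.1 (EPB41) joins spectrin (beta chain, SPTB) to short actin filaments. The same membrane carries the water channel AQP1, the Rh-associated glycoprotein RHAG, which moves ammonia and is needed to bring the Rh antigens to the surface, and the blood group proteins KEL (Kell, a zinc endopeptidase) and ERMAP (Scianna, a butyrophilin-like adhesion protein). During erythroid differentiation these proteins do not appear together: Kell and RHAG are early, and band 3 and protein 4.2 come later. K562 carries embryonic and fetal globin mRNA and can be pushed along the erythroid or the megakaryocytic path by several drugs.

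Values are deposited log2 intensities. Background was set at 3.39, the highest of the lower quartiles of the 12 arrays, and all 9 genes lay above it in all 4 groups. Array medians lay between 4.96 and 5.01. Each probe set has its own sensitivity, so a level of one gene was not set against that of another. The array labelled untreated KS replicate 3 differed from the rest of its group, and values without it are given beside the results that it moves. ABCB1, which encodes P-glycoprotein, read 3.39 in untreated KS, not above background, and 11.22 in untreated KA. Of 9 measured erythroid markers, all 9 exceeded background in every group. Of 9 measured lymphoid markers, 7 exceeded it in every group, and MS4A1 and IL7R did not in any group. Of 9 megakaryocyte markers, 7 to 9 exceeded it, depending on the group, and of 9 myeloid markers 8 or 9 did. Exceeding background therefore does not tell these lineages apart. Changes below are log2 differences with the standard error (SE) of the fit, and "rose", "fell", "higher" or "lower" is written for an adjusted p under 0.05 in limma, adjusted over all 18417 genes.

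The start-site windows of 4 of the 7 genes with a window are shown: AQP1, KEL and EPB42, which rose with decitabine, and RHAG, which was not called. In CpG content only AQP1 differed from the others shown. DNA methylation was not measured on these arrays, and a link between CpG content and response was not tested. Each window runs from 250 bases before to 50 bases after a RefSeq start, is read in the direction of transcription, and has its CpG dinucleotides in capitals.
AQP1, GRCh38.p14 chr7:30911603-30911902, strand +: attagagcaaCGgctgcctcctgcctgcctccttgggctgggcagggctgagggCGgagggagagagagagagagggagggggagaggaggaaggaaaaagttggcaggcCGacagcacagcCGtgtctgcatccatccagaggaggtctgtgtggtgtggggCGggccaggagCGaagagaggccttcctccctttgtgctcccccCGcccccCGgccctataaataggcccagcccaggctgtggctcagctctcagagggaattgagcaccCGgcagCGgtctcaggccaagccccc
KEL, GRCh38.p14 chr7:142962314-142962613, strand -: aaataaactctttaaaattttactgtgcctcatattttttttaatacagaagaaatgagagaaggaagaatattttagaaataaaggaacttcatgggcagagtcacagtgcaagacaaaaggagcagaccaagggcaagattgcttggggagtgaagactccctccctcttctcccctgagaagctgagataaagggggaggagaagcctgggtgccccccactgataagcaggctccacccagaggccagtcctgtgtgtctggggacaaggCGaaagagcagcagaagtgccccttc
EPB42, GRCh38.p14 chr15:43220969-43221268, strand -: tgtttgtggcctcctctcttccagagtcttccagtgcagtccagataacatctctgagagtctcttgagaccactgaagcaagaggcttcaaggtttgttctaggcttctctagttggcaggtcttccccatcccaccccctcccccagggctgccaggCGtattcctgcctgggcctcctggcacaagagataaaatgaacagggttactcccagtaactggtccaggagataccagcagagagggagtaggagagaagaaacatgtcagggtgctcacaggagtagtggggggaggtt
RHAG, GRCh38.p14 chr6:49636790-49637089, strand -: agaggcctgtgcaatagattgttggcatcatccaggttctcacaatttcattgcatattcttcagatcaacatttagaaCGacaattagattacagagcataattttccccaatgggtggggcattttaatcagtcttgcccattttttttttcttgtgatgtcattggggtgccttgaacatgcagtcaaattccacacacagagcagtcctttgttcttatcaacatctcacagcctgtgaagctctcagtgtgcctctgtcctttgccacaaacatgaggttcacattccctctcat

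The AQP1 window held 10 CpG sites, and the KEL, EPB42 and RHAG windows 1 each. Over 35116 such RefSeq windows (GRCh38.p14) the median was 14, and 43.6% held fewer than the AQP1 window against 3.96% for the other 3. A start with 1 CpG site was seen in KEL and EPB42, which rose, and in RHAG, which was not called. Windows were found for 7 of the 9 genes, all but SLC4A1 and ANK1, and 3 of them had 2 starts: SPTB (10 and 28 CpG sites), EPB41 (19 and 29) and ERMAP (30 and 5). These 3 genes rose with decitabine in KS, and EPB41 and ERMAP also in KA. The GATA motif (AGATA or TGATA followed by A or G, both strands), which GATA1 can bind, was found in 25.0% of all windows. It occurred 2 times in KEL, with first bases at -62 and -26 from the start, 2 times in EPB42 (-208 and -61), 1 time in RHAG (-31) and not in AQP1. Of the genes with 2 starts, it occurred 0 and 2 times in SPTB, 1 and 0 times in EPB41 and 0 and 2 times in ERMAP, in the order of their CpG counts above. A CACC-type motif (CCNCNCCC, both strands, overlapping matches counted apart), which KLF factors can bind, was found in 56.2% of windows, with 4 matches in AQP1, 4 in EPB42, 1 in KEL, 1 in RHAG, 2 and 3 in SPTB, 6 and 4 in EPB41 and 2 and 2 in ERMAP. A match is a description of these letters only.

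**Figure D1:**
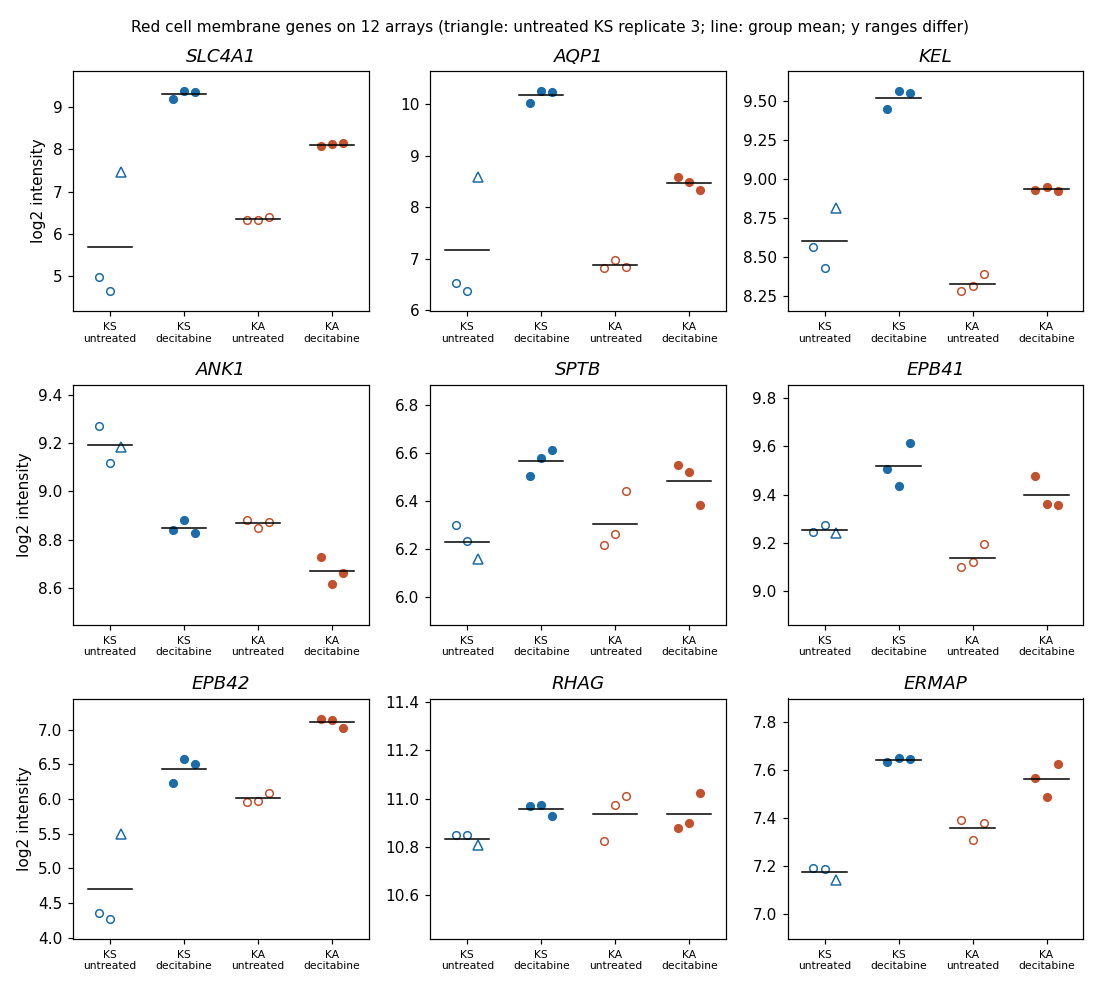
Log2 intensity (y axis, a separate range in each panel) of the 9 red cell membrane genes in the 4 groups, with 1 point per array, open symbols for untreated and filled for treated arrays, a triangle for untreated KS replicate 3 and a line at the group mean. SLC4A1 spans 4.63 to 9.39 and RHAG only 10.81 to 11.03, and the triangle lies above the other untreated KS points in SLC4A1, AQP1, KEL and EPB42.

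Decitabine in sensitive KS raised 7 of the 9 genes (SLC4A1, AQP1, EPB42, KEL, ERMAP, SPTB and EPB41), lowered ANK1 and left RHAG uncalled. The median change of the 9 was 0.47, against -0.01 over all genes. Over all genes 14.6% rose and 15.7% fell. That balance depended on the scaling: 2685 genes rose and 2900 fell as deposited, against 3086 and 2546 with quantile normalization. For all 9 genes the 3 treated arrays lay clear of the 3 untreated ones, which was so for 40.0% of all genes. These 8 calls stood in each of 21 alternatives, including the omission of any 1 array. In bulk RNA, a change in the share of cells that express a gene and a change in RNA per cell cannot be told apart.

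The transport proteins showed the widest range. SLC4A1, the anion exchanger, read 4.98, 4.63 and 7.45 on the untreated KS arrays and 9.18, 9.39 and 9.36 on the treated ones. The third untreated array was high, but no untreated value reached a treated one. The rise was 3.62 ± 0.50 (12.3-fold, adjusted p = 0.000141), and without untreated KS replicate 3 it was 4.51 ± 0.10 (22.7-fold, adjusted p = 4.13e-10). AQP1, the water channel, read 6.54, 6.37 and 8.58 untreated and 10.01, 10.25 and 10.23 treated, with the same array high. It rose by 3.004 ± 0.41 (8.02-fold, adjusted p = 0.000118), or by 3.71 ± 0.10 (13.1-fold) without that array. RHAG, the ammonia channel of the Rh complex, read 10.85, 10.85 and 10.81 untreated and 10.97, 10.97 and 10.93 treated. Its treated arrays were all slightly higher, by 0.12 ± 0.07, which was not called (adjusted p = 0.223, 95% interval -0.03 to 0.28).

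The anchors of band 3 moved in opposite directions. EPB42, which binds band 3 directly, read 4.36, 4.27 and 5.50 untreated and 6.24, 6.57 and 6.51 treated. It rose by 1.73 ± 0.24 (3.32-fold, adjusted p = 0.000137), or by 2.13 ± 0.10 without untreated KS replicate 3, which was again the highest untreated array. ANK1, the adaptor between band 3 and spectrin, read 9.27, 9.12 and 9.19 untreated and 8.84, 8.88 and 8.83 treated. It was the 1 gene of the 9 that fell, by 0.34 on the log2 scale (SE 0.06, adjusted p = 0.00127).

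The spectrin meshwork changed little. SPTB, beta spectrin, read 6.30, 6.23 and 6.16 untreated and 6.50, 6.58 and 6.61 treated, a rise of 0.33 ± 0.08 (adjusted p = 0.00554). EPB41, protein 4.1, read 9.24, 9.27 and 9.24 untreated and 9.51, 9.43 and 9.61 treated, a rise of 0.27 ± 0.07 (adjusted p = 0.00973). In both genes the groups were separate and the untreated KS replicate 3 array was the lowest. Of the blood group proteins, KEL read 8.56, 8.43 and 8.81 untreated and 9.45, 9.56 and 9.55 treated, a rise of 0.92 ± 0.09 (1.89-fold, adjusted p = 1.3e-05), or of 1.02 ± 0.07 (2.03-fold) without untreated KS replicate 3. ERMAP read 7.19, 7.19 and 7.14 untreated and 7.63, 7.65 and 7.64 treated, a rise of 0.47 ± 0.06 (adjusted p = 0.000101). The ERMAP values were the tightest of the 9 within treated KS (SD 0.0079, n = 3).

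The array that stood apart did so in 4 of the genes. On the linear scale, untreated KS replicate 3 lay 24.2% of the way from the other untreated KS arrays to the treated ones in SLC4A1, 27.7% in AQP1, 23.6% in KEL and 37.8% in EPB42. The median over 329 genes raised by 1 or more in its absence was 25.1%, and over 148 genes lowered by 1 or more it was 33.8%. In ERMAP it lay at -8.57%, in EPB41 at -5.91%, in SPTB at -31.8% and in RHAG at -34.2%, that is, slightly on the far side of the other untreated arrays. In ANK1, which fell, it lay at 3.33%. Why this array differs was not tested.

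In resistant KA, decitabine raised 6 of the 9 genes (SLC4A1, AQP1, EPB42, KEL, EPB41 and ERMAP) and lowered none at the threshold. The median change was 0.26, against -0.02 over all genes, of which 9.66% rose and 4.96% fell. These 6 genes rose in both lines, as did 6.18% of all genes. The KA and KS differences share no array, but each SE comes from the same fit of all groups. The calls in the lines are therefore not independent of each other. The 3 treated arrays lay clear of the 3 untreated ones in 7 of the 9 genes, against 35.9% of all genes.

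SLC4A1 read 6.33, 6.32 and 6.40 in untreated KA and 8.08, 8.12 and 8.14 in treated KA. The arrays within each KA group were close together and the groups far apart. The rise was 1.77 ± 0.50 (3.40-fold, adjusted p = 0.033), with an SE that is shared with the untreated KS arrays. From the 6 KA arrays alone it was 1.77 ± 0.06 (adjusted p = 2.26e-05), and without untreated KS replicate 3 it was 1.77 ± 0.09 (adjusted p = 5.99e-07). AQP1 read 6.81, 6.97 and 6.83 untreated and 8.58, 8.49 and 8.32 treated. It rose by 1.59 ± 0.41 (3.02-fold, adjusted p = 0.0204), or by 1.59 ± 0.09 from the KA arrays alone (adjusted p = 9.67e-05). With all groups in the fit, the SLC4A1 call was lost when any 1 of the 6 KA arrays was left out (adjusted p = 0.0695 to 0.089). The AQP1 call was lost without any 1 of the KA arrays other than untreated replicate 2 (adjusted p = 0.0505 to 0.0635). With trend and robust variances neither was called (SLC4A1 0.0928, AQP1 0.0641), and neither was with all rows fitted (0.0792 and 0.0529). RHAG read 10.82, 10.97 and 11.01 untreated and 10.88, 10.90 and 11.03 treated, with overlapping groups (difference -0.0019 ± 0.07, 95% interval -0.15 to 0.15, adjusted p = 0.989).

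EPB42 read 5.96, 5.98 and 6.09 in untreated KA and 7.16, 7.13 and 7.02 in treated KA, a rise of 1.09 ± 0.24 (2.13-fold, adjusted p = 0.00897) that was called with any array left out. ANK1 read 8.88, 8.85 and 8.87 untreated and 8.73, 8.62 and 8.66 treated. Its treated arrays were all lower, but the difference of -0.20 ± 0.06 missed the threshold (adjusted p = 0.0579). It passed with a filter on low values (adjusted p = 0.0421) or with trend and robust variances (0.0143). SPTB read 6.21, 6.26 and 6.44 untreated and 6.55, 6.52 and 6.38 treated, groups that overlapped (0.18 ± 0.08, adjusted p = 0.156). EPB41 read 9.10, 9.12 and 9.20 untreated and 9.48, 9.36 and 9.36 treated, a rise of 0.26 ± 0.07 (adjusted p = 0.0242) that was not called without treated KA replicate 1 or untreated KA replicate 1 or 2 (adjusted p = 0.0809 to 0.0962). KEL read 8.28, 8.31 and 8.39 untreated and 8.93, 8.94 and 8.92 treated, a rise of 0.60 ± 0.09 (1.52-fold, adjusted p = 0.00091). ERMAP read 7.39, 7.31 and 7.38 untreated and 7.57, 7.49 and 7.62 treated. Its rise of 0.20 ± 0.06 (adjusted p = 0.0485) was called without 1 array only when that array was untreated KS replicate 3, and any other omission gave adjusted p = 0.0554 to 0.167. It was also lost with quantile normalization (0.0722), median centring (0.0683) and the 6 KA arrays alone (0.0856).

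**Figure D2:**
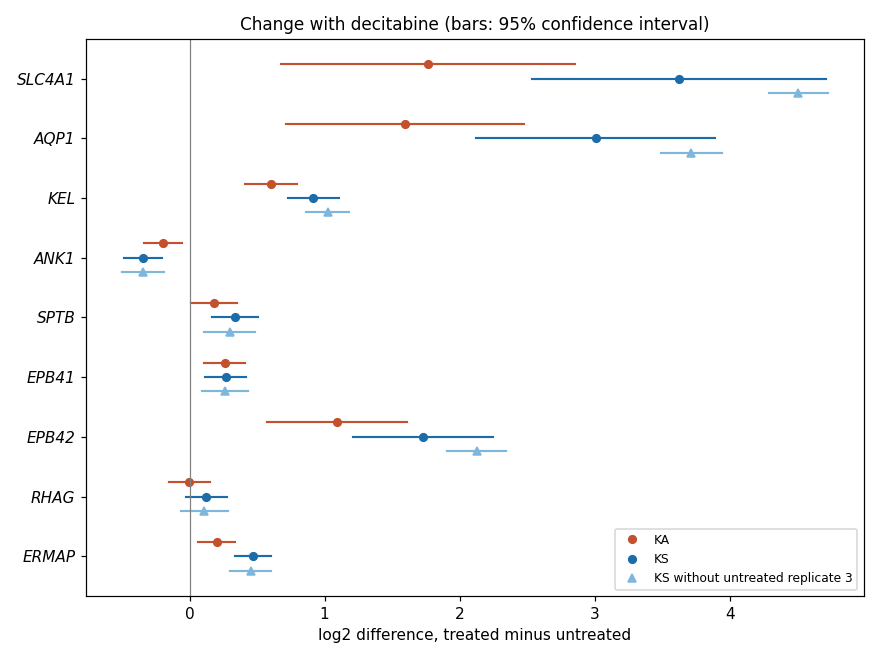
Log2 difference with decitabine (x axis, treated minus untreated) for each of the 9 genes in KA (red), in KS (dark blue) and in KS without untreated replicate 3 (light blue triangles), with bars for the 95% confidence interval. In KS the rises run up to 3.62 for SLC4A1 and 3.004 for AQP1, and the bars of both shorten when the array is left out.

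The 2 responses were compared by their difference, KA minus KS. It was negative in 8 of the 9 genes, and none passed the threshold with all arrays, against 4.60% of all genes higher and 2.14% lower. The 95% intervals, which are not adjusted for the number of genes, did not include 0 in 4 of them: SLC4A1 (-1.86 ± 0.71, interval -3.40 to -0.32, adjusted p = 0.142), AQP1 (-1.41 ± 0.58, -2.66 to -0.16, adjusted p = 0.165), KEL (-0.31 ± 0.12, -0.58 to -0.04, adjusted p = 0.158) and ERMAP (-0.27 ± 0.09, -0.46 to -0.08, adjusted p = 0.0893). Without untreated KS replicate 3 the rise was smaller in KA than in KS in 4 of the 9 genes, where 4.07% of all genes were lower. These were SLC4A1 (-2.74 ± 0.13, adjusted p = 2.6e-06), AQP1 (-2.12 ± 0.14, adjusted p = 1.71e-05), EPB42 (-1.03 ± 0.13, adjusted p = 0.00114) and KEL (-0.42 ± 0.10, adjusted p = 0.0208). The difference for EPB42 with all arrays was -0.63 ± 0.34 (adjusted p = 0.288). For EPB41 it was -0.01 ± 0.10 (95% interval -0.22 to 0.20), for SPTB -0.16 ± 0.11, for RHAG -0.13 ± 0.10 and for ANK1 0.14 ± 0.09. Quantile normalization moved the calls over all genes from 847 higher and 394 lower to 611 higher and 522 lower.

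Between the untreated lines, 2 of the 9 genes were higher in KA (EPB42 and ERMAP) and 2 lower (KEL and ANK1), where 11.6% of all genes were higher and 14.1% lower. The arrays of the lines lay clear of each other in 5 of the 9 (EPB42, ERMAP, KEL, ANK1 and EPB41), against 38.4% of all genes. EPB42 showed the largest difference: the KA arrays (5.96 to 6.09) lay above the KS arrays (4.27 to 5.50), by 1.30 ± 0.24 (2.46-fold, adjusted p = 0.00123), or by 1.70 ± 0.10 without untreated KS replicate 3. ANK1 was lower by -0.32 ± 0.06 (adjusted p = 0.00212), and both calls held with any 1 array left out. SLC4A1 read 6.32 to 6.40 in KA, above untreated KS replicates 1 and 2 but below replicate 3. It was not called with all arrays (0.66 ± 0.50, adjusted p = 0.389) and was higher in KA by 1.54 ± 0.10 without replicate 3 (adjusted p = 5.13e-07). AQP1 turned from -0.29 ± 0.41 (adjusted p = 0.661) to 0.42 ± 0.10 higher in KA (adjusted p = 0.0102) without that array. KEL (-0.28 ± 0.09, adjusted p = 0.0353) was not called without untreated KA replicate 1 or 2 or untreated KS replicate 1 or 3 (adjusted p = 0.0625 to 0.113). ERMAP (0.19 ± 0.06, adjusted p = 0.0437) was called without treated KA replicate 3 but not without any other array (adjusted p = 0.0501 to 0.125). Without untreated KS replicate 3, 4 of the 9 were called in either direction, 3 higher (SLC4A1, AQP1 and EPB42) and 1 lower (ANK1), where 26.5% of all genes were called. SPTB, EPB41 and RHAG were not called (0.08 ± 0.08, -0.11 ± 0.07 and 0.10 ± 0.07).

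Between the treated lines, AQP1 and KEL were lower in KA and none of the 9 was higher, where 15.1% of all genes were higher and 11.9% lower. The treated arrays of the lines lay clear of each other in 6 of the 9, against 41.5% of all genes. AQP1 read 8.32 to 8.58 in treated KA against 10.01 to 10.25 in treated KS, a difference of -1.70 ± 0.41 (3.25-fold, adjusted p = 0.0067). KEL read 8.92 to 8.94 against 9.45 to 9.56 (-0.59 ± 0.09, adjusted p = 0.00024). SLC4A1 read 8.08 to 8.14 in KA against 9.18 to 9.39 in KS, with no overlap. The difference of -1.20 ± 0.50 was not called with all arrays in the fit (adjusted p = 0.102). It was called in a fit of the 6 treated arrays alone (-1.20 ± 0.08, adjusted p = 8.5e-06) and without untreated KS replicate 3 (adjusted p = 1.26e-06). EPB42 was on the other side, with 7.02 to 7.16 in KA against 6.24 to 6.57 in KS (0.66 ± 0.24, adjusted p = 0.0569). It was called as higher in KA from the treated arrays alone (0.66 ± 0.10, adjusted p = 0.00113) and when any 1 untreated KS array was left out (adjusted p = 0.000144 without replicate 3). Without untreated KS replicate 3, 4 of the 9 were called in either direction (EPB42 higher, and SLC4A1, AQP1 and KEL lower), where 28.8% of all genes were called. The other 5 genes were not called, with differences from -0.18 ± 0.06 (ANK1) to -0.02 ± 0.07 (RHAG). ANK1 (adjusted p = 0.0554) was called as lower in KA with a filter on low values (0.0409) or with trend and robust variances (0.0153).

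SLC4A1, SPTB and ERMAP shared 1 order of their 4 group means, and AQP1, KEL and EPB41 shared another. EPB42, ANK1 and RHAG each had an order of their own. SLC4A1 ran from untreated KS (5.69 ± 1.54, SD, n = 3) to untreated KA (6.35 ± 0.04), treated KA (8.12 ± 0.03) and treated KS (9.31 ± 0.11). The 2 lowest groups, and the 2 highest, were not separated by the test with all arrays. AQP1 ran from untreated KA (6.87 ± 0.08) to untreated KS (7.16 ± 1.23), treated KA (8.46 ± 0.13) and treated KS (10.16 ± 0.13), and its 2 lowest groups were not separated. Without untreated KS replicate 3 the untreated KS mean of AQP1 was 6.45, below untreated KA, which is the order of SLC4A1. Of the 9, EPB42 was the one with its highest mean in treated KA (7.10 ± 0.07), above treated KS (6.44 ± 0.18), untreated KA (6.01 ± 0.07) and untreated KS (4.71 ± 0.69), and its 2 highest groups were not separated by the test with all arrays. KEL ran from untreated KA (8.33 ± 0.06) to untreated KS (8.60 ± 0.19), treated KA (8.93 ± 0.01) and treated KS (9.52 ± 0.06). ANK1 was highest in untreated KS (9.19 ± 0.08) and lowest in treated KA (8.67 ± 0.06), and the arrays of untreated KA (8.87 ± 0.02) and treated KS (8.85 ± 0.03) overlapped. Groups that differ in both line and treatment were not compared by a test. RHAG means spanned 0.12, SPTB 0.33, EPB41 0.38 and ERMAP 0.47.

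**Figure D3:**
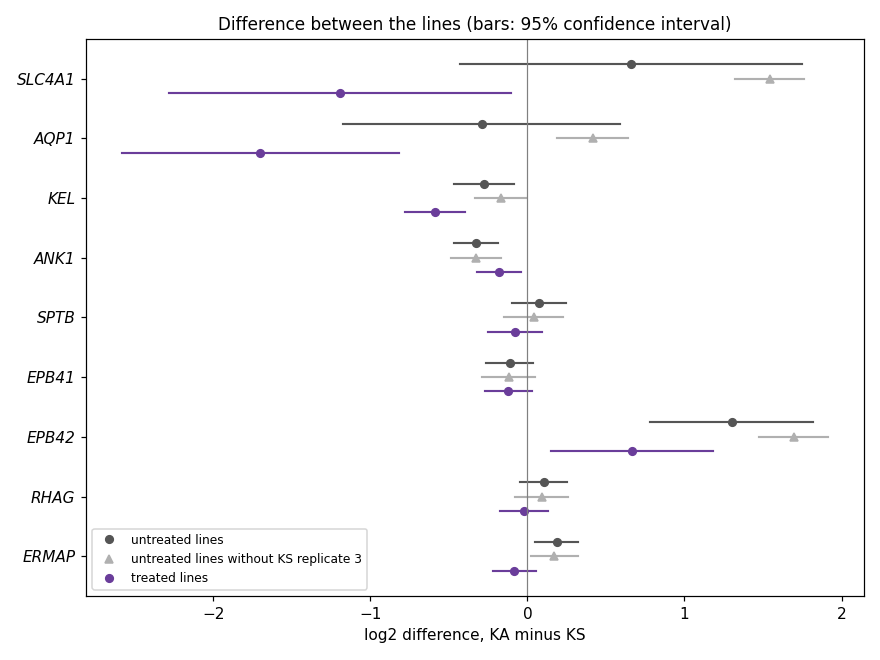
Log2 difference between the lines (x axis, KA minus KS) for each of the 9 genes, for untreated lines (dark grey), untreated lines without KS replicate 3 (light grey triangles) and treated lines (purple), with bars for the 95% confidence interval. SLC4A1 goes from 0.66 untreated to -1.20 treated, AQP1 from -0.29 to -1.70, and EPB42 stays above 0 at 1.30 and 0.66.

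Other genes of the red cell membrane, 40 measured of a list of 49, were read in the same fit, and 38 of them exceeded background in at least 1 group. The others were not analysed here. In KS decitabine raised 26 of the 40 and lowered 3, with a median of 0.42 (25 and 4 without untreated KS replicate 3, median 0.45). Over all genes 14.6% rose and 15.7% fell in KS. In KA it raised 12 and lowered 2, with a median of 0.14, where 9.66% of all genes rose and 4.96% fell. Of 10 measured skeleton genes, 5 rose and 2 fell in KS, and 3 rose and 1 fell in KA. ADD2, beta adducin, which caps actin at the spectrin junctions beside protein 4.1, rose by 1.27 ± 0.11 in KS and 0.49 ± 0.11 in KA. STOM, stomatin, and ACTB, actin, fell in KS (-0.33 ± 0.06 and -0.25 ± 0.06), as did ACTB in KA (-0.22 ± 0.06). The ACTB call in KA was lost without any 1 KA array (adjusted p up to 0.108) and under both other scalings. Of 18 blood group carriers, 13 rose in KS and 6 rose and 1 fell in KA. SEMA7A, a semaphorin, rose by 1.47 ± 0.18 in KS, or by 1.75 ± 0.08 without untreated KS replicate 3. It was not called in KA (0.52 ± 0.18, adjusted p = 0.0641). RHCE, the Rh antigen protein that RHAG accompanies, rose by 1.34 ± 0.13 in KS and 0.61 ± 0.13 in KA. RHCE has a near copy in RHD, so which of them was read is uncertain. CD44, an adhesion receptor, rose by 0.65 ± 0.08 in KS and 0.66 ± 0.08 in KA. B4GALNT2, a glycosyltransferase, fell in KA (-0.56 ± 0.17), a call lost without treated KA replicate 1 or 3, untreated KA replicate 1, 2 or 3, treated KS replicate 1 or untreated KS replicate 1 or 2 (adjusted p up to 0.17). Of 12 transporters and channels, 8 rose and 1 fell in KS and 3 rose in KA. ABCG2, a porphyrin and drug exporter, rose by 0.91 ± 0.10 and PIEZO1, a mechanosensitive channel, fell (-0.69 ± 0.07) in KS. ABCG2 also rose in KA, from a level not above background, so that only a bound on the size exists. PIEZO1 was not called in KA (0.03 ± 0.07). ATP2B4, a calcium pump, rose by 0.72 ± 0.09 in KS and 0.57 ± 0.09 in KA.

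**Figure D4:**
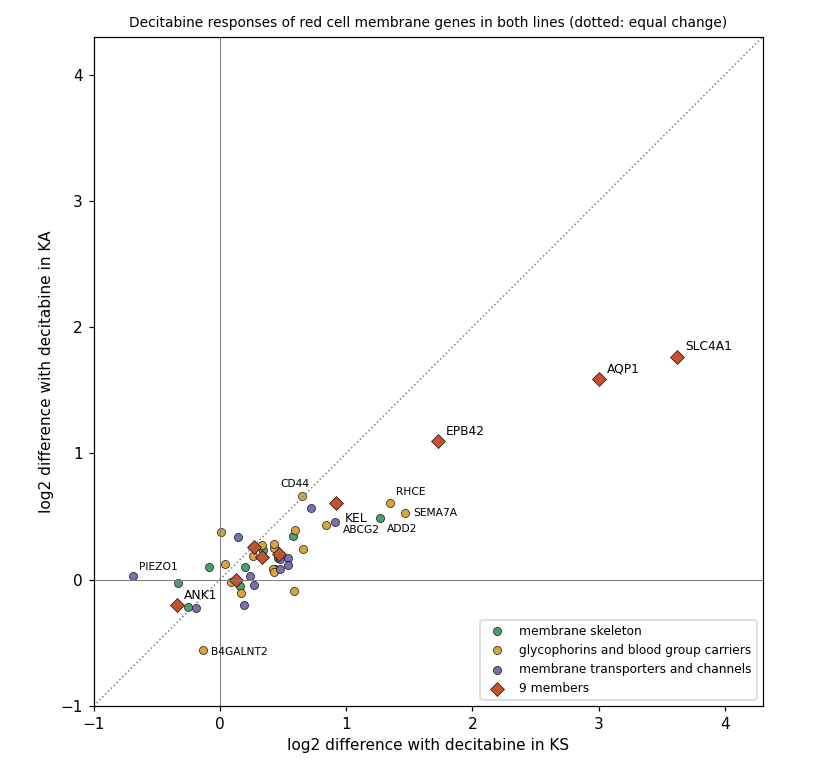
Log2 difference with decitabine in KS (x axis) and in KA (y axis), for the 9 genes (diamonds) and 40 other red cell membrane genes (circles, coloured by group), with a dotted line where both would be equal. SLC4A1 (3.62 and 1.77), AQP1 (3.004 and 1.59) and EPB42 (1.73 and 1.09) lie furthest out and below the line, and PIEZO1 (-0.69 in KS) lies furthest to the left.

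Without decitabine, 12 of these 40 genes were higher and 8 lower in KA (15 and 10 without untreated KS replicate 3). Of all genes, 11.6% were higher and 14.1% lower with all arrays. CD44 (1.06 ± 0.08), ACHE, the acetylcholinesterase (0.68 ± 0.13), XK, the partner to which KEL is linked (0.54 ± 0.07), and ABCB6, a porphyrin transporter (0.52 ± 0.08), were higher. ABCG2 (4.41 in KS and 3.20 in KA, where it was not above background, so that only a bound on the size exists), SLC40A1, the iron exporter (-0.66 ± 0.08), TPM1, a tropomyosin (-0.36 ± 0.09), and CD99, an adhesion protein (-0.36 ± 0.07), were lower. With decitabine in both lines, 5 of the 40 were higher and 13 lower in KA, where 15.1% of all genes were higher and 11.9% lower. CD44 (1.07 ± 0.08) and SLC43A1, an amino acid carrier (0.46 ± 0.07), were again among the higher ones, with PIEZO1 (0.44 ± 0.07) and STOM (0.30 ± 0.06). ABCG2 (-1.66 ± 0.10), SLC40A1 (-0.97 ± 0.08), ADD2 (-0.60 ± 0.11) and SEMA7A (-0.55 ± 0.18) were lower. The SEMA7A call was lost without any 1 treated array (adjusted p up to 0.101).

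Erythroid regulators and markers were read beside the 9 genes. Of 11 erythroid regulators, 4 rose and 1 fell in KS, where 14.6% of all genes rose and 15.7% fell. In KA 1 of the 11 rose, where 9.66% of all genes rose and 4.96% fell. GFI1B, an erythroid and megakaryocytic repressor, rose in both lines (0.63 ± 0.09 in KS and 0.59 ± 0.09 in KA). GATA2, the GATA factor of progenitors, fell in KS (-0.72 ± 0.09). GATA1, the main erythroid GATA factor, rose by 0.25 ± 0.08 in KS, TAL1, its partner, by 0.30 ± 0.09 and EPOR, the erythropoietin receptor, by 0.38 ± 0.09. The GATA1 call was lost without treated KS replicate 2 or 3 or untreated KS replicate 1 or 2 (adjusted p up to 0.11), and the TAL1 call without treated KS replicate 2 or 3 or untreated KS replicate 2 (up to 0.0829). KLF1, which binds CACC motifs, was not called in KS (0.05 ± 0.08, 95% interval -0.12 to 0.22) or KA (0.04 ± 0.08).

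The mean log2 level of the 9 erythroid markers lay between 8.93 and 9.30 on the untreated KS arrays, 9.69 and 9.77 on treated KS, 9.31 and 9.42 on untreated KA and 9.60 and 9.64 on treated KA. ALAS2, the erythroid enzyme that starts haem synthesis, rose by 2.47 ± 0.31 in KS, and AHSP, the alpha globin chaperone, by 2.39 ± 0.34. Without untreated KS replicate 3 these rises were 3.001 ± 0.09 and 2.93 ± 0.17. In KA they rose by 1.01 ± 0.31 and 1.39 ± 0.34, and HEMGN, a haematopoietic nuclear protein, fell (-0.50 ± 0.08). The ALAS2 call in KA was lost without any 1 KA array or treated KS array (adjusted p up to 0.118), and the AHSP call without treated KA replicate 3 or untreated KA replicate 1 (up to 0.0656). Of the erythroid markers, 6 rose in KS (6 rose and TFRC, the transferrin receptor, fell without untreated KS replicate 3), and 2 rose and 1 fell in KA, and GATA1, KLF1 and EPOR are also among the regulators. Some markers of other lineages also moved. The integrin chains of platelets ITGA2B (0.99 ± 0.09 in KS, 1.49 ± 0.09 in KA) and ITGB3 (2.10 ± 0.24 and 1.52 ± 0.24) rose in both lines, as did LYZ, lysozyme (2.61 ± 0.34 and 1.77 ± 0.34). In KS without untreated KS replicate 3 the rises were 1.09 ± 0.08 for ITGA2B, 2.49 ± 0.11 for ITGB3 and 3.19 ± 0.11 for LYZ. Of 9 measured megakaryocyte markers, 2 rose and 1 (GP6, -0.55 ± 0.10) fell in KS and 2 rose in KA. Their median change was -0.09 in KS and -0.06 in KA. Of 9 myeloid markers, 5 rose in KS and 1 (LYZ) in KA, with medians of 0.35 and -0.03. None of 9 lymphoid markers was called with decitabine in either line. Over all genes 14.6% rose and 15.7% fell in KS, and 9.66% rose and 4.96% fell in KA. Between untreated lines 1 of the 9 lymphoid markers, CD3D, was higher in KA (2.28 ± 0.09) and the other 8 were not called. Over all genes 11.6% were higher and 14.1% lower in that comparison. The mean level of the myeloid markers was 5.01 to 5.48 on untreated and 5.75 to 5.85 on treated KS arrays, and 5.20 to 5.24 and 5.34 to 5.44 in KA. That of the megakaryocyte markers was 4.47 to 4.78 and 4.80 to 4.89 in KS, and 4.70 to 4.78 and 4.96 to 5.02 in KA. The part that these shifts have in the changes of the 9 genes was not tested.

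The genes most like the 3 widest-ranging ones over the 12 arrays were picked by Pearson correlation among 4857 genes above background in a group and with group means that spanned at least 0.5. For SLC4A1 these were RTL9 (r = 0.99, group means from 3.77 in untreated KS to 5.99 in treated KS), GBGT1 (r = 0.99) and DUSP21 (r = 0.99). For AQP1 they were VAV1 (r = 0.99), TP53INP1 (r = 0.99) and ITGB3 (r = 0.98). For EPB42 they were SERINC2 (r = 0.99, 5.81 in untreated KS to 7.47 in treated KA), EEF1A2 (r = 0.99) and PDK4 (r = 0.99). Like EPB42, SERINC2, EEF1A2 and PDK4 had their highest mean in treated KA, whereas the genes named for SLC4A1 and AQP1 had theirs in treated KS. Sharing the highest group of a gene comes with being picked by correlation to it, and is no further result. All points share the same 4 groups and the same untreated KS array that stood apart, so these values only describe the arrays.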

How the data were processed

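Total RNA (Trizol) was labelled as biotin cRNA and hybridised to Affymetrix arrays, per the labels' protocols. The authors deposited log2 intensities; background correction, summarization, normalization and genome build are not given in the sources used here, and the log base was read from the range of the values. The platform annotation gives 1 gene symbol for 19460 of 33297 transcript clusters (19429 matched to RefSeq, GRCh38.p14), several for 1754 and none for 12083. For each of 18417 genes the cluster with the highest mean was used. Group means of the 12 arrays were fitted with limma 3.58.1 in R 4.3.3 (8 residual and 4.71 prior degrees of freedom), with Benjamini-Hochberg adjustment over all genes, after a check on simulated data. In the simulated data each gene had the same spread in all groups and no array stood apart. The check therefore does not cover an array like untreated KS replicate 3. The number of arrays limits the precision. The 9 genes, the lists and the rules were chosen with earlier results of these data known. Other genes are named as the up to 4 with the largest called changes in each direction per comparison; markers and regulators were named after their values were seen. Alternatives were other scalings, filters, rows, samples, variance models, a replicate block and each array left out. The replicate numbers did not pair the samples. Python 3.11.15 with matplotlib 3.10.9 drew the figures.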

Additional observations from a re-analysis of the deposited data

Results flagged for a closer look

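None of the 9 genes had a decitabine response that differed between KA and KS at the threshold with all arrays. Among the other genes read beside them, the difference of responses (KA minus KS, log2, interaction term in limma over 12 arrays, adjusted p under 0.05) passed it for 13. Of the membrane genes that rose in KS, it was -0.94 ± 0.25 for SEMA7A, -0.79 ± 0.15 for ADD2, -0.74 ± 0.18 for RHCE, -0.68 ± 0.10 for XK, -0.41 ± 0.11 for RHD, -0.37 ± 0.10 for CD59 and -0.36 ± 0.09 for ADD3. For PIEZO1 and the regulator GATA2, which fell in KS, it was 0.72 ± 0.10 and 0.46 ± 0.12. Of the markers, it was -0.53 ± 0.11 for HBZ, an embryonic globin, -0.56 ± 0.12 for HEMGN, 0.50 ± 0.13 for ITGA2B and -0.75 ± 0.21 for S100A8, a granulocyte calcium-binding protein. S100A8 was above background in treated KS but not in untreated KS or in either KA group, so the size of its difference was not measured. The calls for ADD2, XK, PIEZO1, HBZ and HEMGN stood in all 20 alternatives, and those for the other 8 in 6 to 9 of them. By list, 1 of 40 other membrane genes was higher and 7 were lower, and 1 of 11 regulators was higher. Of 9 measured markers of each lineage, 2 erythroid and 1 myeloid were lower, 1 megakaryocyte marker was higher and no lymphoid one was called. Over all genes 4.60% were higher and 2.14% lower. RHCE and RHD are near copies, so which was read is uncertain.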

How the results depend on the processing

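Over single genes and all 5 comparisons, no called direction of the 9 genes reversed under any alternative. AQP1 between untreated lines, not called with all arrays, ranged from -0.69 to 0.42 as single arrays were left out, and was 0.42 (called) without untreated KS replicate 3 and also with treated KS replicate 1 left out as well, an alternative added after seeing the data. Uncalled values near 0 changed sign for RHAG with decitabine in KA (0.0333 with quantile normalization, -0.0584 to 0.0354 with arrays left out), for RHAG between treated lines (0.0090 with quantile normalization, 0.0005 with median centring, -0.0679 to 0.0054 with arrays left out) and for EPB41 in the difference of responses (0.0199 with median centring, -0.0499 to 0.0406 with arrays left out).

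Counts of the 9 genes called in KS (7 rose, 1 fell) were the same throughout. Between untreated lines (2 higher, 2 lower), 1 was lower with quantile normalization, all rows fitted, only the 2 groups compared or both KS arrays left out, and 1 higher with median centring, all rows fitted, only the 2 groups compared or the replicate block (ERMAP, adjusted p = 0.0752); leaving out arrays gave 1 to 3 higher and 1 to 2 lower. In KA (6 rose, 0 fell), 3 rose with all rows fitted, 1 fell with the filter on low values or with trend and robust variances (ANK1; under the latter SLC4A1 and AQP1 lost their calls and 4 rose), and leaving out arrays gave 2 to 6 and 0 to 0. In the difference of responses (0 and 0), 1 was lower with quantile normalization (ERMAP) and 4 with both KS arrays left out, and leaving out arrays gave 0 to 4 lower and 0 to 0 higher. Between treated lines (0 higher, 2 lower), 1 was higher with median centring, the filter, only the 2 groups compared or both KS arrays left out (EPB42), and leaving out arrays gave 0 to 1 higher and 2 to 3 lower.

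Over all genes, calls in the difference of responses (847 higher, 394 lower) went to 495 higher with the replicate block, 1337 higher with trend and robust variances, 774 lower with both KS arrays left out, and 364 to 1300 higher and 200 to 749 lower with single arrays left out. In KA (1780 and 914) they were 1133 to 1943 and 479 to 1077. With quantile normalization the direction with more calls turned in KS (2685 higher and 2900 lower to 3086 and 2546). It also turned between untreated lines (2133 higher and 2602 lower to 2610 and 2186). Of the 40 other membrane genes, 7 lower in the difference of responses became 4 (median centring, replicate block), 2 (all rows), 13 (trend and robust) and 2 to 11 with arrays left out, and the 1 higher became 2 with the filter or with trend and robust variances. In KA, 12 risers became 7 to 13 with arrays left out, and the 2 that fell 0 to 2. The cause of these changes was not tested.

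Deviations of same-numbered arrays correlated at -0.26 to 0.19 over 18 pairs, above 0.1 in 2 of them, so the numbers were not taken as pairs. With the replicate block, ERMAP also lost its call in KA (adjusted p = 0.0851), and no other call of the 9 genes changed.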
